A study of Mus musculus with 11 samples.

Results

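Neurotrophins and the growth factors of the GDNF family, with the receptors that bind them, were followed here in cultured otospheres, in the tissue the otospheres came from and in pluripotent cells. The members were 8 genes, of the 20284 named genes on the array: the ligands Bdnf, Ntf3 and Gdnf and the receptors Ngfr, Ntrk2, Ntrk3, Gfra1 and Ret. They were found by mapping the transcript accession of every probe that was not a control to a current mouse gene symbol, which gave 13 of the 55681 probes, and the brightest probe of each gene, by its mean over the samples, stood for that gene. Ntrk2 had 3 probes, Ntrk3 had 4 and each of the other genes had 1.

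Single-colour microarrays of 11 RNA samples were compared. Cochlear sensory epithelium (CSE, 3 samples) was dissected from ICR mice at postnatal day 1, with 10 mice or 20 cochleae in a preparation. Otospheres (OS, 6 samples) were spheres grown from dissociated CSE cells of the same strain and age, cultured for 4 to 5 days, passaged 1 time and cultured for a further 4 to 5 days, in medium holding bFGF at 10 ng/ml, IGF1 at 50 ng/ml and the supplements N2 and B27, and filtered so that solid spheres were kept. Mouse embryonic stem cells (ESCs, 2 samples) were 1 culture each of the lines G4-2 and D3, at passage 13 and held with the cytokine LIF, so that this group is a pair of lines and not repeats of 1 line. The dissected epithelium was a bulk sample that could hold neurites, glia and connective tissue as well as hair cells and supporting cells.

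Neurotrophins are secreted proteins that keep neurons alive and guide their outgrowth and synapses. BDNF acts through the receptor kinase TrkB (Ntrk2) and NT-3 (Ntf3) mainly through TrkC (Ntrk3), while p75 (Ngfr) binds all neurotrophins, and GDNF binds the anchored coreceptor GFRα1 (Gfra1) and then the kinase RET. In the cochlea, hair cells and supporting cells are known as sources of BDNF and NT-3, and the spiral ganglion neurons that innervate them carry TrkB and TrkC.

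Values are log2 signals after background correction and quantile normalization, and differences are log2 differences from a limma model of all 3 groups, with Benjamini-Hochberg adjustment over 47997 probes. Otosphere arrays 1 and 2 and arrays 4 and 5 differed by about the noise between replicate spots or less and each pair was counted as 1 sample by averaging, which left 4 otosphere samples, named OS1+OS2, OS3, OS4+OS5 and OS6. A probe was called where the adjusted p was under 0.05. The arrays lay on 2 slides, with ES1, OS1, OS2, OS3, CSE1 and CSE2 on slide 1 and ES2, OS4, OS5, OS6 and CSE3 on slide 2. In these bulk samples, fewer cells of a type and less RNA per cell cannot be told apart.

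The 250 bases before a transcription start were at hand from RefSeq (build GRCm38.p6) for 6 of the 8 genes, in 14 windows. They are shown for 4 genes: Bdnf and Gdnf, which did not differ past the threshold between otospheres and CSE, and Ntf3 and Gfra1, which were lower in otospheres. The motifs searched on both strands were TGACG, a core that CREB family factors are known to recognise, GGGCGG, the GC box, and CAGCTG, an E-box. TGACG, or CGTCA where it lies on the other strand, is written in capitals. The windows were picked for printing after the search.
Bdnf, chr2:109692186-109692435, plus strand: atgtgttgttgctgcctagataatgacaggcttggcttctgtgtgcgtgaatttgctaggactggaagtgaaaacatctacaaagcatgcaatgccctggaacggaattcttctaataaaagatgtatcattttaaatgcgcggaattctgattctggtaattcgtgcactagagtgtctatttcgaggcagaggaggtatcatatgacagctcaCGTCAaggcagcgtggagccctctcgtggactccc
Gdnf, chr15:7809798-7810047, plus strand: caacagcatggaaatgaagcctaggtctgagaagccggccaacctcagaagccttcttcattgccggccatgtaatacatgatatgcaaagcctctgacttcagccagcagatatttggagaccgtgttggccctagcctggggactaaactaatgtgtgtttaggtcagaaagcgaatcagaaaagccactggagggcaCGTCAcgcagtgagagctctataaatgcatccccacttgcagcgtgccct
Ntf3, chr6:126164961-126165210, minus strand: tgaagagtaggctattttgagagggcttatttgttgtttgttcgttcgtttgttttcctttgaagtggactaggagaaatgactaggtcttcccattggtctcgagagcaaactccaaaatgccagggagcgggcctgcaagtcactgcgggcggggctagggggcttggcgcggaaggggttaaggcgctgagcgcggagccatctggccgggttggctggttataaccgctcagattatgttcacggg
Gfra1, chr19:58455399-58455648, minus strand: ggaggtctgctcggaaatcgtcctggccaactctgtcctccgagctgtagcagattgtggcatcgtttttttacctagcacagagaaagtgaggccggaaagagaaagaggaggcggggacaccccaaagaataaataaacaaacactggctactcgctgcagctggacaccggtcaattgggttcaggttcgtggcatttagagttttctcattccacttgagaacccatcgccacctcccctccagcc
TGACG stood in 2 of the 14 windows, 1 of the 7 of Bdnf and 1 of the 2 of Gdnf, and in 17.8% of all 32851 windows of this length. GGGCGG stood in 5 of the 14 windows, 2 of Bdnf, both of Ntf3 and the window of Ngfr, and in 32.7% of all windows. CAGCTG stood in 3 of the 14, 1 of Bdnf and those of Ngfr and Gfra1, and in 13% of all windows. A match is a run of letters and was not tied here to any factor or to the levels below.

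The ligands parted. Ntf3 was far lower in otospheres than in the epithelium, while Bdnf and Gdnf were not called different from CSE and were above the ESC level. Ntf3, which encodes NT-3, had log2 signals of 8.45 in OS1+OS2, 7.34 in OS3, 8.25 in OS4+OS5 and 7.17 in OS6. It had 11.65, 11.32 and 12.27 in CSE1 to CSE3 and 5.60 and 6.78 in the ESC lines. The 3 groups did not overlap, and every otosphere sample lay between the ESCs and the epithelium. The otosphere mean of 7.80 ± 0.64 (SD, n = 4) was 15.4-fold lower than the CSE mean of 11.74 ± 0.48 (SD, n = 3), a log2 difference of -3.94 (SE 0.42, adjusted p = 6.47e-04 by limma). The call held in each of 18 other settings of the analysis, in which the difference ran from -4.16 to -3.67. Against the ESCs, otospheres were 1.61 higher (SE 0.47, adjusted p = 0.0329) and CSE 5.55 higher (SE 0.50, adjusted p = 8.46e-05), by limma. The otosphere difference from ESCs was past the threshold in 12 of the 18 settings and fell to 1.02 without ES1 (adjusted p = 0.247).

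Bdnf, the TrkB ligand, had log2 signals of 8.30, 8.28, 8.80 and 8.48 in OS1+OS2, OS3, OS4+OS5 and OS6. The CSE samples had 8.17, 8.11 and 8.68, and the ESC lines 6.11 and 7.32. Otospheres and CSE overlapped and both lay above the ESCs. The otosphere mean of 8.47 ± 0.24 (SD, n = 4) and the CSE mean of 8.32 ± 0.31 (SD, n = 3) differed by 0.14 (SE 0.30, adjusted p = 0.883 by limma), less than the spread within either group. Otospheres were 1.76 above the ESCs (SE 0.34, adjusted p = 0.00441) and CSE 1.61 above them (SE 0.36, adjusted p = 0.00868), by limma. Without ES1 the otosphere difference was 1.15 (adjusted p = 0.0279), and the CSE difference dropped below the threshold (1.01, adjusted p = 0.0504).

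Gdnf, the ligand of the GFRα1 and RET complex, had log2 signals of 9.37, 9.65, 9.06 and 8.69 in OS1+OS2, OS3, OS4+OS5 and OS6. The CSE samples had 8.43, 8.04 and 8.95, and the ESC lines 5.07 and 6.42, of which ES1 was not well above background. Otospheres overlapped CSE only through OS6, which was below CSE3, and all 7 of these samples lay above both ESC lines. The otosphere mean of 9.19 ± 0.41 (SD, n = 4) was 0.72 above the CSE mean of 8.47 ± 0.45 (SD, n = 3), which was not past the threshold (SE 0.37, adjusted p = 0.315 by limma). Within slide 1 the difference was 1.27 and within slide 2 it was -0.0697. The excess over the ESCs was 3.45 in otospheres (SE 0.42, adjusted p = 4.1e-04) and 2.73 in CSE (SE 0.44, adjusted p = 0.0018), by limma, and both calls held in all 18 settings. With the processed signal the CSE difference was larger, at 4.10.

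**Figure D1:**
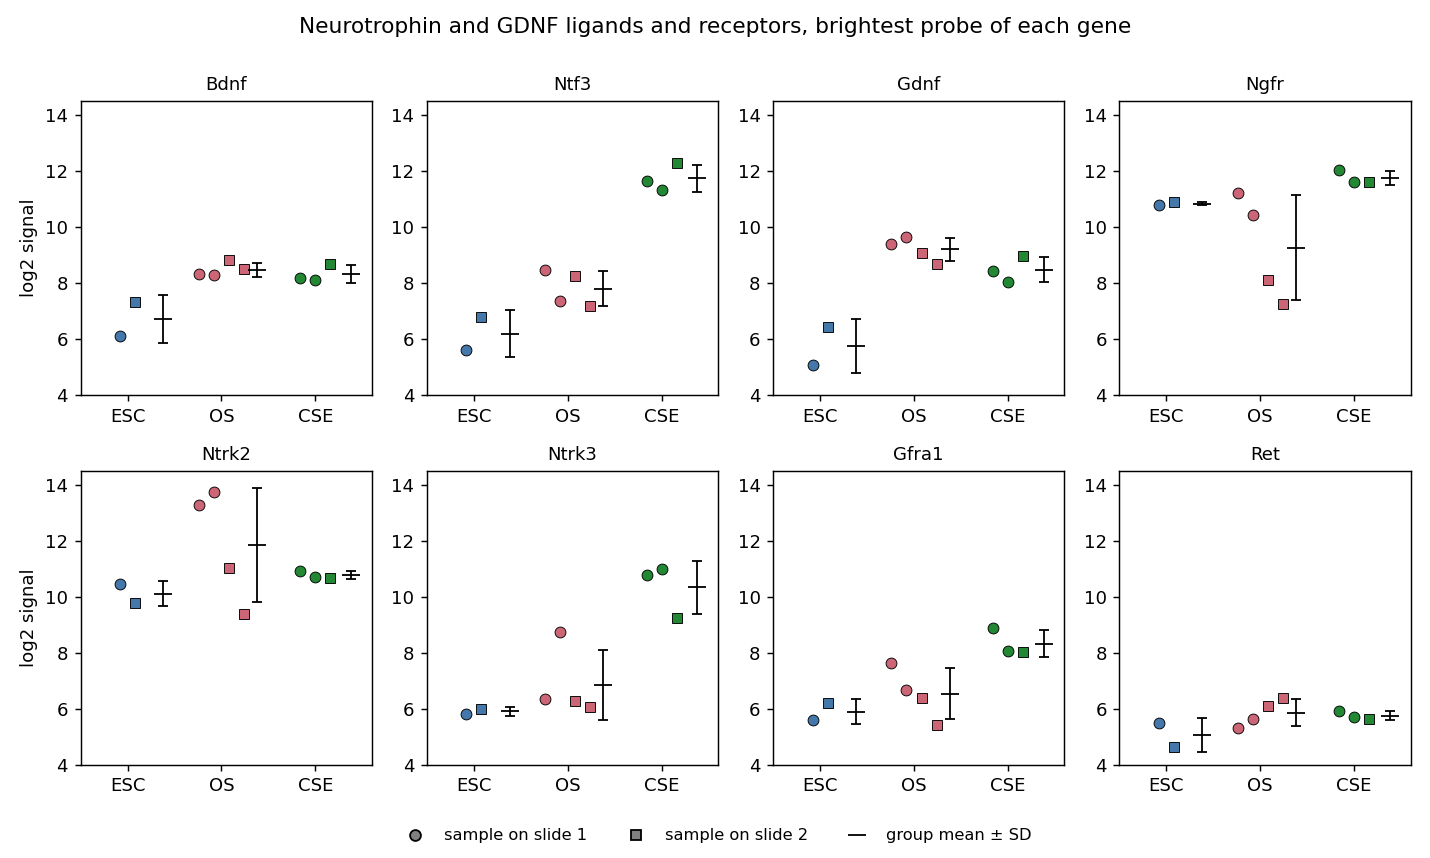
Log2 signal (y axis) of the brightest probe of each of the 8 genes in the ESC, otosphere (OS) and CSE samples (x axis), with circles for slide 1, squares for slide 2 and the group mean ± SD in black. Ntf3 lies between 7.17 and 8.45 in otospheres against 11.32 to 12.27 in CSE, while Ntrk2 and Ngfr spread widely among the otosphere samples, with slide 1 above slide 2.

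The Trk receptors differed between probes. For Ntrk2, which encodes TrkB, the brightest probe (A_55_P2006792, designed to NM_001025074) gave 13.25, 13.74, 11.01 and 9.38 in OS1+OS2, OS3, OS4+OS5 and OS6. The CSE samples had 10.92, 10.71 and 10.65, and the ESC lines 10.43 and 9.78. Otospheres spanned a range that took in both other groups: 3 samples lay above every CSE sample and OS6 lay below every CSE and ESC sample. Their mean of 11.85 ± 2.03 (SD, n = 4) was 1.08 above CSE (10.76 ± 0.14, SD, n = 3), which was not past the threshold (SE 0.92, adjusted p = 0.614 by limma). The difference was 2.68 within slide 1 and -0.46 within slide 2. Against the ESCs it was 1.74 (SE 1.05, adjusted p = 0.269), and 2.56 without OS6 (adjusted p = 0.0306), by limma.

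A second Ntrk2 probe, A_65_P04961, is designed to NM_008745, the accession of the short TrkB form that lacks the kinase. It gave 10.85, 11.69, 9.01 and 4.92 in OS1+OS2, OS3, OS4+OS5 and OS6, against 7.68, 6.91 and 7.37 in CSE. It was not well above background in either ESC line nor in OS6. The otosphere samples thus followed the same order as with the brightest probe, and the mean difference from CSE was 1.80 (SE 1.36, adjusted p = 0.55 by limma). With the ESC lines set at the lowest signal well above background, the otosphere mean was at least 13.3-fold and the CSE mean at least 3.83-fold higher. The otosphere bound does not hold for each sample: OS6, at 4.92, was below both ESC lines (5.20 and 5.27). Otospheres were measured on 5 of 6 arrays, and neither difference from the ESCs was past the threshold (adjusted p = 0.0969 and 0.398 by limma).

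The third probe, A_51_P393454, went the other way. It is designed to NM_001025074, the accession of the full-length kinase form, as the brightest probe is, and gave 6.15, 6.68, 5.59 and 4.95 in OS1+OS2, OS3, OS4+OS5 and OS6. The CSE samples had 9.45, 9.07 and 7.93 and the ESC lines 5.57 and 5.04. No otosphere sample reached the lowest CSE sample. The otosphere minus CSE difference was -2.97 (SE 0.47, adjusted p = 0.00416 by limma), and CSE was 3.51 above the ESCs (SE 0.56, adjusted p = 0.00159). This was the only Ntrk2 probe called in any comparison.

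The Ntrk2 probes thus gave means on both sides of CSE. A_51_P393454 was dim in otospheres and not well above background in OS6. Since it carries the same accession as the brightest probe, these data do not assign the disagreement to the long or the short TrkB form, and the position of the probes along the transcript was not given in the sources used here.

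Ntrk3, which encodes TrkC, had a lower mean in otospheres than in CSE by each of its 4 probes, past the threshold for 2 of them. The brightest (A_66_P118329, designed to NM_008746, the full-length kinase form) gave 6.35, 8.73, 6.26 and 6.05 in OS1+OS2, OS3, OS4+OS5 and OS6. The CSE samples had 10.77, 10.99 and 9.25, and the ESC lines 5.80 and 6.01. Every otosphere sample fell between the ESC lines and the lowest CSE sample, and OS3 stood 2.39 above the next otosphere sample. In otospheres the mean of 6.85 ± 1.26 (SD, n = 4) was 11.2-fold below the CSE mean of 10.34 ± 0.95 (SD, n = 3), a log2 difference of -3.49 (SE 0.67, adjusted p = 0.0114 by limma). The call was lost without CSE1 (-3.27, adjusted p = 0.0572). CSE was 4.43 above the ESCs (SE 0.81, adjusted p = 0.00326), and the 0.95 of otospheres over ESCs was not past the threshold (SE 0.76, adjusted p = 0.417), by limma.

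The 3 other Ntrk3 probes put otospheres below CSE by -2.83 (A_55_P2056533, adjusted p = 0.0339 by limma), -1.83 (A_55_P2006808, adjusted p = 0.148) and -1.08 (A_52_P500274, adjusted p = 0.105). OS3 was the highest otosphere sample by each of the 4 probes. The latter 2 probes are designed to NM_182809, the accession of the short TrkC form without the kinase, and OS3 reached 8.21 and 8.29 by them. At A_55_P2006808 it lay above all 3 CSE samples (7.47 to 8.13), and at A_52_P500274 it lay within their range (8.27 to 8.54). A_55_P2006808 was well above background on 3 of 6 otosphere arrays.

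**Figure D2:**
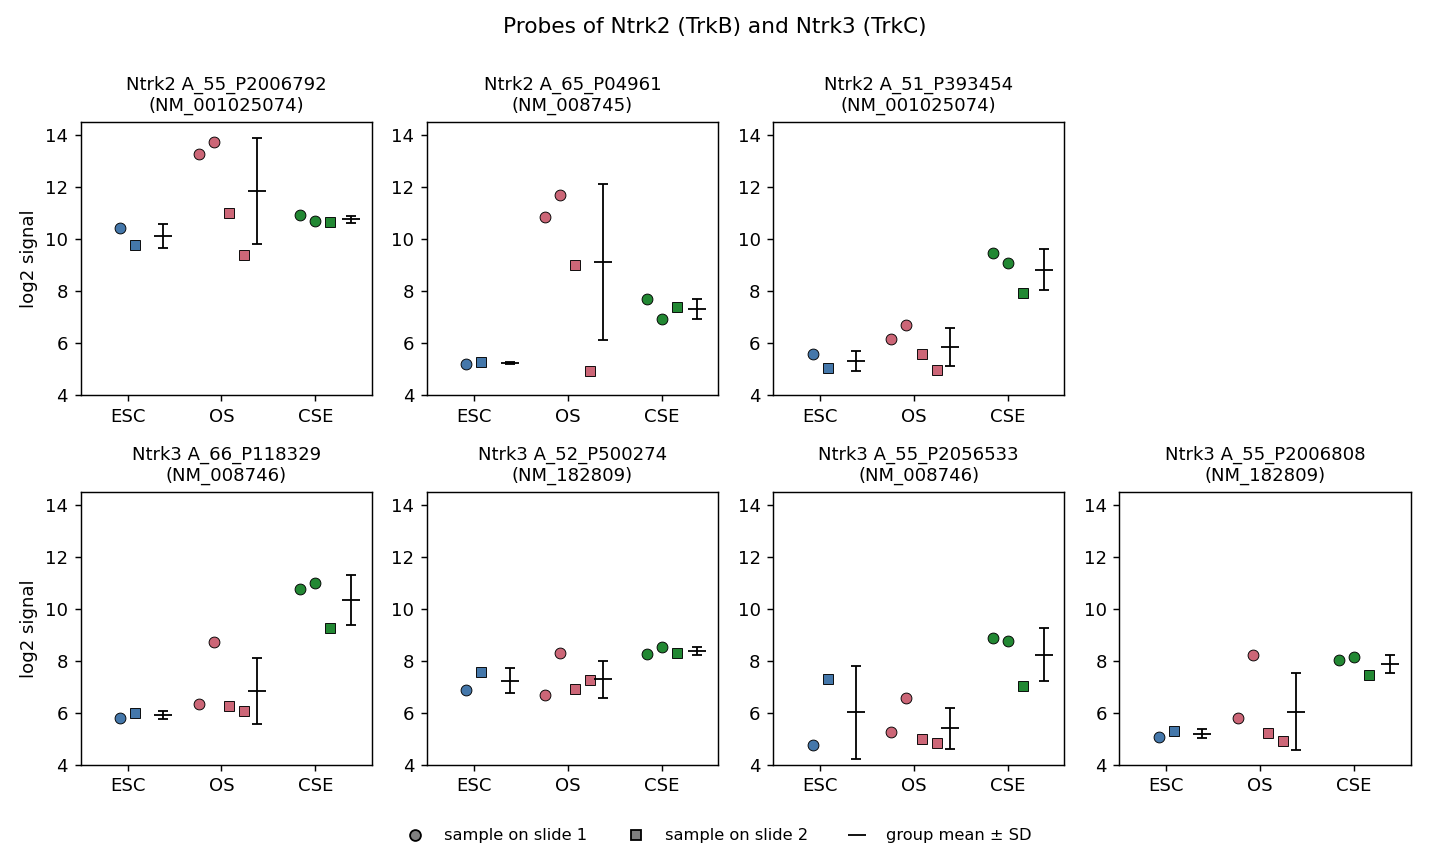
Log2 signal (y axis) of the 3 probes of Ntrk2 (top row) and the 4 probes of Ntrk3 (bottom row) in the ESC, otosphere and CSE samples (x axis), symbols as in the plot of the 8 genes. Only A_51_P393454 of the Ntrk2 probes lies below CSE in every otosphere sample, and OS3 is the highest otosphere sample in each Ntrk3 panel.

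Ngfr, the p75 receptor, divided the otosphere samples. It gave 11.22 in OS1+OS2, 10.43 in OS3, 8.12 in OS4+OS5 and 7.25 in OS6, against 12.02, 11.60 and 11.61 in CSE and 10.78 and 10.87 in the ESC lines. Each otosphere sample was below each CSE sample, by little on slide 1 and by much on slide 2. Otospheres had a mean of 9.25 ± 1.88 (SD, n = 4) and the CSE mean of 11.75 ± 0.24 (SD, n = 3) differed by -2.49, which was not past the threshold (SE 0.85, adjusted p = 0.109 by limma). Within slide 1 the difference was -0.99 and within slide 2 it was -3.93. Without OS1+OS2 the difference was -3.15 and was past the threshold (adjusted p = 0.0321), and with any other single sample left out it was not. In the deposited log2 table it was -0.26 (adjusted p = 0.471). That table holds probes printed 10 times per array, as the Ngfr probe is, on a compressed scale: their spread over arrays was 0.107 times that of the values used here (median of 148 probes that varied between arrays), against 1.09 times for probes printed 1 time. Otospheres did not differ from ESCs past the threshold (-1.57, SE 0.96, adjusted p = 0.278), and neither did CSE (0.92, SE 1.02, adjusted p = 0.569), by limma.

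Gfra1, the GDNF coreceptor, had log2 signals of 7.63, 6.67, 6.40 and 5.43 in OS1+OS2, OS3, OS4+OS5 and OS6. The CSE samples had 8.87, 8.05 and 8.03 and the ESC lines 5.60 and 6.20. Otospheres lay below CSE in every sample and overlapped the ESCs. The otosphere mean of 6.53 ± 0.91 (SD, n = 4) was 3.45-fold lower than that of CSE (8.32 ± 0.48, SD, n = 3), a log2 difference of -1.79 (SE 0.47, adjusted p = 0.0431 by limma). This call was near the threshold: it was kept in 5 of 18 other settings, with adjusted p from 0.0134 to 0.17, and was lost without OS3, OS4+OS5 or OS6, without any 1 CSE sample and without either ESC line. CSE was 2.42 above the ESCs (SE 0.56, adjusted p = 0.0112), which was lost without ES1 (2.12, adjusted p = 0.0743), and the 0.63 of otospheres over ESCs was not past the threshold (SE 0.53, adjusted p = 0.441), by limma.

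Ret, the kinase that GFRα1 presents GDNF to, was near background on most arrays. It gave 5.31, 5.62, 6.09 and 6.39 in OS1+OS2, OS3, OS4+OS5 and OS6, 5.93, 5.69 and 5.62 in CSE, and 5.50 and 4.62 in the ESC lines. The probe was well above background on 3 of 6 otosphere arrays, all on slide 2, on 2 of 3 CSE arrays and on neither ESC array. Otospheres and CSE overlapped and differed by 0.11 (SE 0.30, adjusted p = 0.921 by limma). Neither group differed from the ESCs past the threshold (adjusted p = 0.124 and 0.202 by limma), and no fold is given since part of the arrays of each group did not measure it. At these signals a difference in Ret would be hard to detect.

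Counted over the 8 genes, 3 were lower in otospheres than in CSE (Ntf3, Ntrk3 and Gfra1) and none was higher, also at an unadjusted p under 0.05. Over all probes tested, 6.19% were lower and 4.84% higher in this comparison. The median difference of the 8 genes was -0.84, beside 0.02 for all probes. Against ESCs, 3 genes were higher in otospheres (Bdnf, Ntf3 and Gdnf) and none was lower, where 12.1% of all probes were higher and 15.6% lower. CSE was above ESCs for 5 genes (Bdnf, Ntf3, Ntrk3, Gdnf and Gfra1) and below for none, where 13.2% of all probes were higher and 15.6% lower. Over the 3 groups at once, the F-test called 5 of the 8 genes and 33.8% of all probes. The 3 comparisons share samples, so their counts are not separate evidence. The labels do not say that all samples of a group came from separate cultures or dissections, and the p-values then measure only the spread between these samples.

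**Figure D3:**
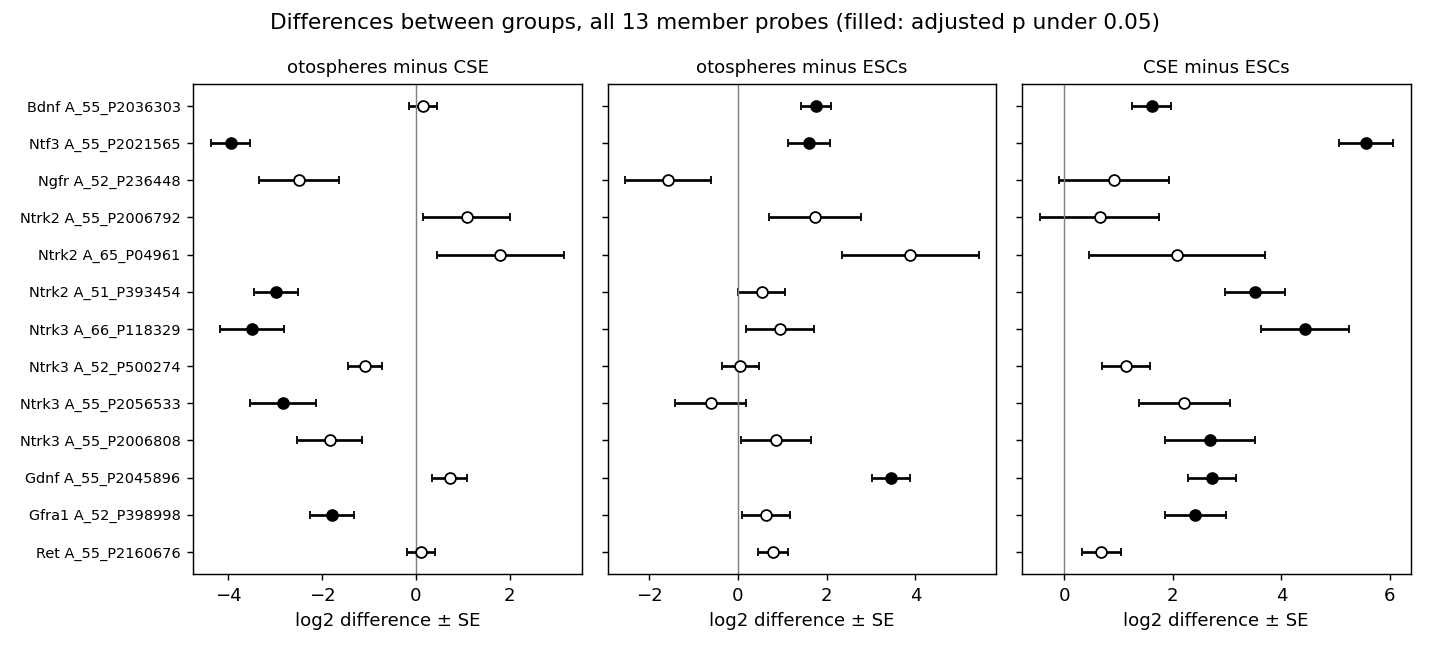
Log2 difference ± SE (x axis) for each of the 13 probes of the 8 genes (y axis) in otospheres minus CSE, otospheres minus ESCs and CSE minus ESCs, with filled points where the adjusted p from limma was under 0.05. The filled points at left lie between -3.94 for Ntf3 and -1.79 for Gfra1, and the Ntrk2 probes fall on both sides of 0.

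Genes that process, bind or relay these ligands were taken from a list of 56, of which 55 had a probe past the filter on dim signals. In otospheres 4 were higher and 10 lower than in CSE, with a median difference of -0.23. Over all probes 4.84% were higher and 6.19% lower, with a median of 0.02. Ntf5, which encodes the other TrkB ligand NT-4, was higher, with 10.08, 10.18, 10.45 and 10.46 in OS1+OS2, OS3, OS4+OS5 and OS6 against 7.88, 7.23 and 8.06 in CSE. The groups did not overlap and the difference was 2.57 (SE 0.29, adjusted p = 8.15e-04 by limma). Of the TrkB ligands measured, NT-4 was thus higher in otospheres while the Bdnf signal differed by less than its spread.

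Gdf15, a distant ligand of the RET pathway that signals through GFRAL and is known as a stress-induced gene, had the largest difference of the list. It gave 12.36, 10.35, 13.88 and 15.26 in OS1+OS2, OS3, OS4+OS5 and OS6 against 5.98, 5.41 and 6.51 in CSE, a difference of 7.0 (SE 1.04, adjusted p = 0.0032 by limma). The otosphere samples spread widely but none came near CSE. Bex3, a p75-binding protein, was higher by 1.63 (SE 0.28, adjusted p = 0.00631), and the cytokine gene Lif was the remaining gene of the 4.

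Among the 10 that were lower were both proprotein convertases that passed, Pcsk6 and Pcsk5, enzymes that cleave growth factor precursors. Pcsk6 lay between 8.88 and 11.01 in otospheres and between 13.84 and 14.18 in CSE, a difference of -3.71 (SE 0.48, adjusted p = 0.00165 by limma). Pcsk5 differed by -2.54 (SE 0.19, adjusted p = 1.41e-04), the smallest p of the list, and Furin, the convertase found in most cells, was not called. Gfra2, the neurturin coreceptor, lay between 7.03 and 8.82 in otospheres and between 10.77 and 11.58 in CSE, a difference of -3.11 (SE 0.47, adjusted p = 0.00343). It fell alongside Gfra1, and Gfra3 was the remaining coreceptor called lower. The ciliary neurotrophic factor receptor Cntfr (-2.19, adjusted p = 0.0483), the transcription factor Gata3 (-2.10, adjusted p = 0.00467), the secreted neuropeptide precursor Vgf (-1.97, adjusted p = 0.013) and the sortilin-related receptor Sorcs3 (-1.56, adjusted p = 0.00212) were lower as well.

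By comparison with ESCs, 13 of the 55 genes were higher and 8 lower in otospheres, and 19 were higher and 5 lower in CSE. Over all probes these shares were 12.1% and 15.6% for otospheres and 13.2% and 15.6% for CSE. Gata3 was 4.15 above the ESCs in otospheres (adjusted p = 9.48e-05 by limma) although it was below CSE. Vgf was lower in otospheres than in both other groups, by -4.51 against the ESCs (adjusted p = 1.38e-04).

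**Figure D4:**
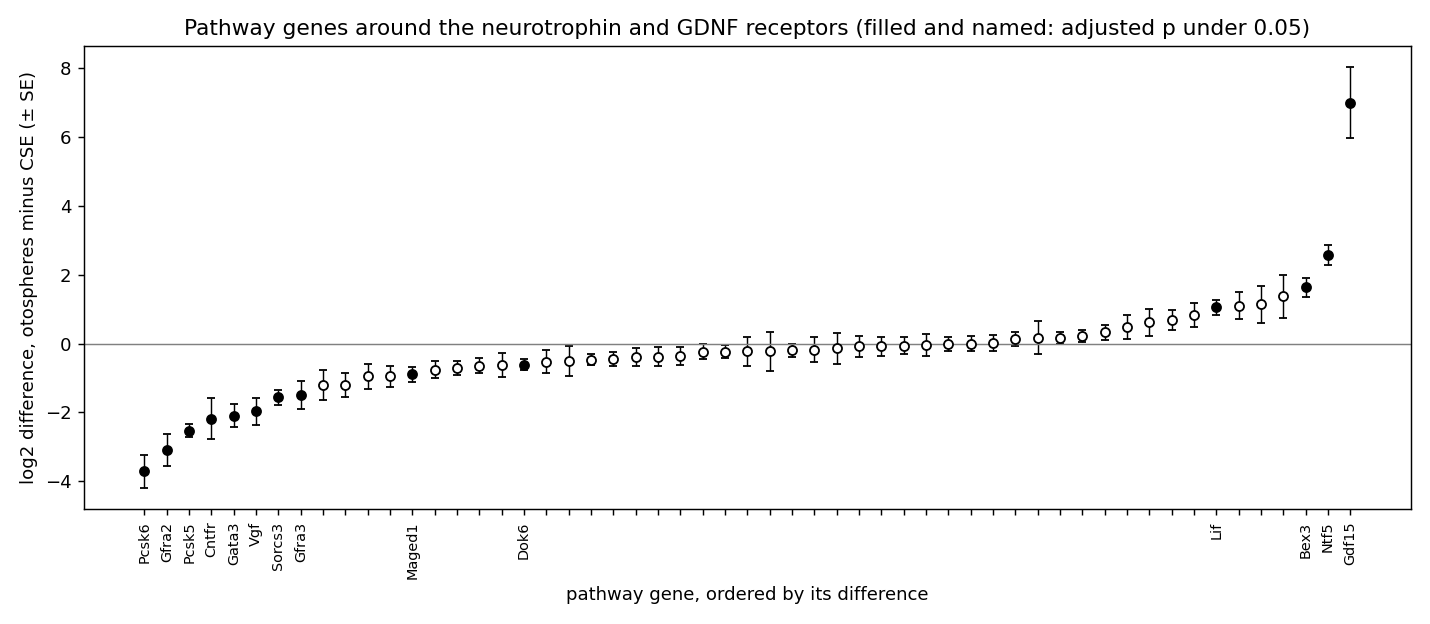
Log2 difference in otospheres minus CSE ± SE (y axis) for the 55 pathway genes ordered by that difference (x axis), with filled points and names for the genes whose adjusted p from limma was under 0.05. Gdf15 at 7.0 and Ntf5 at 2.57 stand at the right end, and Pcsk6 at -3.71 and Gfra2 at -3.11 at the left end.

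The samples also differed in markers of the cells that use these factors. The mean log2 signal of 12 neuronal genes was 7.55 to 8.04 in otospheres and 10.97 to 11.96 in CSE, with 10 of the 12 called lower in otospheres. Tubb3 and Elavl3 were among them, and no otosphere array had Elavl3 well above background. Over all probes, 6.19% were called lower and 4.84% higher in otospheres than in CSE. Of 11 Schwann and satellite glial genes 4 were lower and 1 higher, with means of 8.19 to 9.23 in otospheres and 10.02 to 10.35 in CSE, while Sox10 was at 13.02 and 13.29 in these groups. Supporting cell genes (10 of 12 lower) and hair cell genes (5 of 11 lower) were also lower in otospheres, at 9.18 to 9.60 and 6.85 to 8.72, than in CSE, at 11.67 to 12.11 and 9.36 to 9.61. The 5 ESC genes had means of 13.16 to 13.77 in the ESC lines and at most 7.52 elsewhere, although the Nanog probe that carries a RefSeq name was at 8.38 in ESCs and 9.82 in otospheres. From CSE to otospheres, Ntrk3, Ntf3 and Gfra1 moved in the direction of these neuronal, glial, hair cell and supporting cell lists, and of the mesenchymal list below. The ESC lines had a neuronal mean of 9.77 to 9.80, above the otospheres. Ntrk3, Ntf3 and Gfra1 instead had lower means in ESCs than in otospheres, called only for Ntf3. The part of those cells in the results was not tested.

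Mesenchymal genes, 2 of 11 called lower than in CSE beside 6.19% of all probes, separated the otosphere samples from each other. Their mean was 11.10 in OS1+OS2, 11.70 in OS3, 9.89 in OS4+OS5 and 7.70 in OS6, against 11.86 to 12.35 in CSE and 6.71 to 7.0 in ESCs. OS3 was highest and OS6 lowest, the order that all 3 Ntrk2 probes and Gdnf followed in the same samples. Ngfr also had its lowest values in OS4+OS5 and OS6 but its highest in OS1+OS2. Slide and mesenchymal level went together in the otospheres, and their part in the spread of Ntrk2 and Ngfr was not tested.

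**Figure D5:**
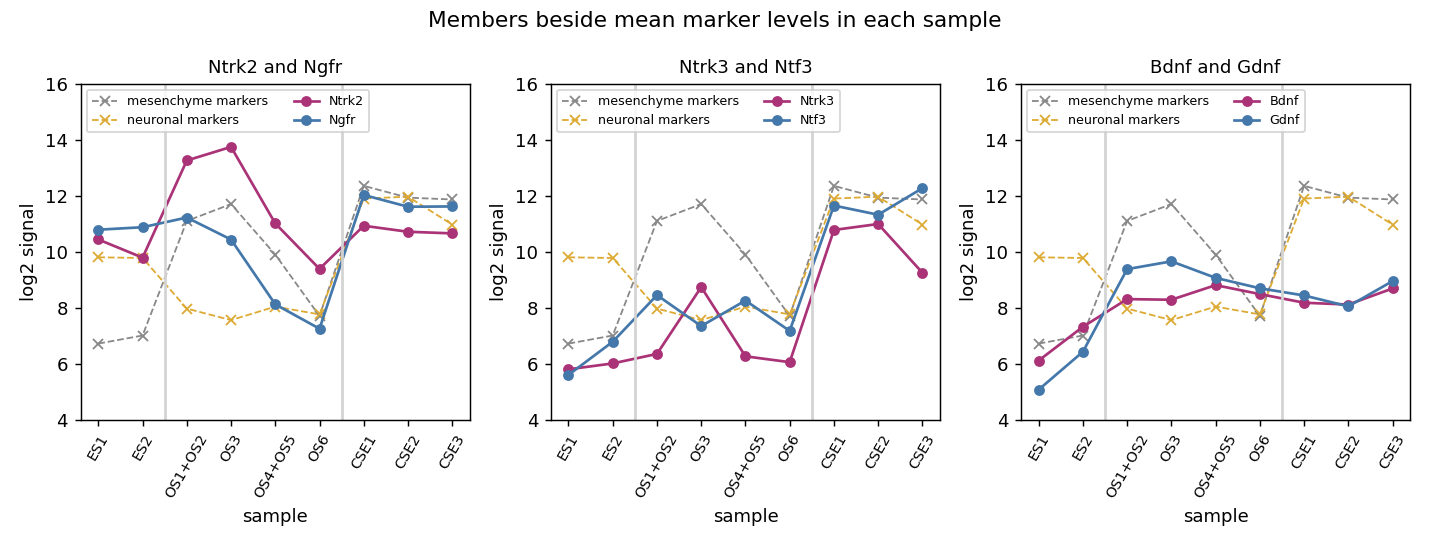
Log2 signal (y axis) of 6 of the genes in each of the 9 samples (x axis) beside the mean log2 signal of 11 mesenchymal genes (grey, dashed) and 12 neuronal genes (yellow, dashed), with vertical lines between ESCs, otospheres and CSE. In the otospheres Ntrk2 falls from 13.74 in OS3 to 9.38 in OS6 as the mesenchymal mean falls from 11.70 to 7.70, while the neuronal mean stays between 7.55 and 8.04.

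The genes whose pattern over the 9 samples was most like each member were listed as a description, by Pearson r over 18553 named genes. The samples fall into 3 groups and share arrays and normalization, so high values arise readily. Ntf3 was most like Cdh18 (r = 0.992) and Jag1 (r = 0.988), a Notch ligand and marker of supporting cells and their precursors, whose group means were 12.80 in CSE, 10.11 in otospheres and 9.09 in ESCs. Ntrk2 was most like Srpx2 (r = 0.983) and Itih2 (r = 0.978), and Ntrk3 like Kcnt1 (r = 0.981), a sodium-activated potassium channel of neurons, and Rufy3 (r = 0.977). Bdnf was most like Ccdc90b (r = 0.994) and Ugp2 (r = 0.989), Gdnf like Chpf2 (r = 0.993) and Rhox4a (r = 0.988), and Gfra1 like Rgs7bp (r = 0.981) and Tmem26 (r = 0.976). Ngfr was most like Setd5 (r = 0.973) and Bckdhb (r = 0.967), and Hdac5 was among the genes most like Ret (r = 0.960).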

How the data were processed

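RNA from ESCs, otospheres and CSE (50 or 100 ng) was labelled with 1 dye and hybridised to Agilent mouse arrays. The authors deposited scanner files of fluorescence intensity for each spot, made with Feature Extraction 10.7.3.1, and a table of log2 values normalized with limma. Starting from the deposited intensity values, median foreground was corrected for median background by normexp (offset 16). The values were then quantile normalized and averaged over the spots of a probe (limma 3.58.1, R 4.3.3). A probe was kept if its signal exceeded the 95th percentile of negative control spots by 10% on 2 or more arrays (47997 probes). The arrays had 55.1% to 71.6% of spots well above background and no saturated spot, and their number limits the precision.

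One model of the 9 samples compared the 3 groups with limma. The members, the pathway and marker lists and the tests were chosen with earlier results of these data known. Named were all members, the 10 called pathway genes with the largest otosphere against CSE difference and the 2 genes most like each member. Other pathway and marker genes were named after their values were seen, and a few items are not reported here. Alternatives covered offset, scaling, the deposited log2 table, filters, array averaging, blocks, probes and left-out samples, and the fit was tested on simulated data. Arrays OS1 and OS2 differed by 1.09 times and OS4 and OS5 by 0.476 times the spread expected between replicate spots (probes above log2 8), and all other pairs of a group by at least 1.96 times.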

Additional observations from a re-analysis of the deposited data

Results flagged for a closer look

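For Ntrk3, 1 of the 4 otosphere samples lay far from the rest. OS3 had a log2 signal of 8.73 by the brightest probe, and its gap to the next sample took up 0.89 of the range of the otosphere samples. Chance flags about 1 in 20 such groups, and 8 genes were examined. The other Ntrk3 probes also had OS3 as the highest otosphere sample. Without OS3 the otosphere minus CSE difference was -4.12 (adjusted p = 0.00113 by limma).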

How the results depend on the processing

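The otosphere against CSE fall of Ntf3 and the rise of Bdnf and Gdnf over ESCs in otospheres kept direction and call in all 18 settings of scaling, filter, sample grouping and left-out samples. With a replicate block and every array a separate sample, 1 of the 8 genes was higher in otospheres than in CSE (Ntrk2, 2.66) and 1 was lower (Ntf3). Replicate numbers did not pair the samples (r from -0.39 to 0.36 between same-numbered deviations of otospheres and CSE). Replicate numbers 4 to 6 exist only for otospheres, so under that block OS4, OS5 and OS6 added nothing to any difference between groups. Under that block Bdnf was at -0.0267 and Ret at -0.33 against CSE, and Ngfr at 0.29 against ESCs, each with the opposite sign to the value reported, and Ngfr at -0.79 and Gfra1 at -1.01 against CSE. Leaving out 1 sample at a time gave 1 to 4 genes lower in otospheres than CSE (the fewest without CSE1) and 3 to 5 genes higher in CSE than ESCs (the fewest without ES1). Signs also turned for Ret against CSE with the processed signal (-0.28), without OS6 (-0.0727) and within slide 1 (-0.35), and within slide 1 against ESCs for Ngfr (0.0413) and Ret (-0.0344). Within slide 2 they turned against CSE for Bdnf (-0.0411), Ntrk2 (-0.46) and Gdnf (-0.0697), and against ESCs for Gfra1 (-0.29). By other probes they turned for Ntrk2 against CSE (-2.97) and Ntrk3 against ESCs (-0.61). The cause was not tested. Calls over all probes numbered 2321 with otospheres above CSE and 2973 with otospheres below. With every array separate 3682 were higher, and without 1 sample 1281 to 2629 were higher (1281, 1534 and 1377 without CSE1, CSE2 and CSE3, and 1412 without OS4+OS5) and 1664 to 3340 lower (1664 and 1836 without CSE1 and CSE3). The processed signal moved the median of all probes from -0.03 to -0.28 for otospheres and from -0.06 to -0.25 for CSE against ESCs. Ret, the ESC signals of Gdnf and the dimmer Ntrk probes lay near background, where differences are limited by signal.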
